A study of Drosophila melanogaster with 24 samples.

Results

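The 8 genes described here make up the core of the early neurogenic programme of the Drosophila melanogaster embryo: achaete (ac), scute (sc), lethal of scute (l(1)sc), asense (ase), deadpan (dpn), worniu (wor), escargot (esg) and prospero (pros). They were chosen by name, 8 of the 13220 genes with a transcription start site (TSS) in the authors' table. All of their 52 TSSs, of 45839 in the table, were taken, and the TSS with the highest mean over the libraries was called the main TSS of its gene. The proneural proteins Ac, Sc and L(1)sc are basic helix-loop-helix activators that, paired with Daughterless, give groups of ectodermal cells the competence to form neural precursors. Notch signalling then restricts this state to single cells, which leave the ectoderm as neuroblasts and switch on precursor genes such as ase, dpn and wor. Neuroblasts divide asymmetrically, and the homeodomain protein Prospero passes to the smaller daughter, where it ends self-renewal.

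Capped short RNA sequencing (csRNA-seq) was used, in which short capped RNAs are selected so that read starts mark where RNA polymerase II began. Whole embryos of 3 strains were collected in the windows 0-2, 2-4, 4-6 and 6-8 h at the same temperature. The strains F3 and M6 carry the genotype tinmDPE, read here as a mutated downstream promoter element (DPE) of the mesoderm gene tinman (tin), and the strain Cas9 carries tinWT. With 1 library for each strain in each window, 8 tinmDPE libraries stood against 4 tinWT libraries, and because tinWT was 1 strain, genotype and strain cannot be told apart. Nothing in the labels says that collections were repeated within a strain, so the p-values measure the spread between these libraries alone. In whole embryos, fewer cells of a type and less RNA per cell cannot be told apart.

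The main TSSs lay at or beside the annotated starts. The position called in most libraries was within 5 bp of the RefSeq start for 7 genes and 16 bp inside the transcript for ase, so that ac and sc started 3 and 1 bp upstream of their annotation and the others in exon 1 of a transcript. The 7 core promoters below run from 40 bases upstream to 40 bases downstream of the TSS position, in RefSeq Release 6 (dm6), and are shown because the genes differ in them. They are chrX:369988-370068 for ac, chrX:396019-396099 for sc, chrX:409683-409763 for l(1)sc and chrX:460723-460803 for ase on the plus strand, chr2L:15425535-15425615 for wor on the minus strand, and chr2L:15333829-15333909 for esg and chr3R:11372750-11372830 for pros on the plus strand. Capitals mark a TATA box, an initiator and, in wor, a DPE match. In ac, l(1)sc and ase, where no initiator was found, the base of the TSS itself is in capitals. In sc they mark the base of the TSS and an initiator match whose A lies 10 bp downstream.
ac: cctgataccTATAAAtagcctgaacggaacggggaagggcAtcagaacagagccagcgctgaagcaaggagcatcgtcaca
sc: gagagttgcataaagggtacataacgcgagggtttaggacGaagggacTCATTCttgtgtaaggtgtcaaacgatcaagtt
l(1)sc: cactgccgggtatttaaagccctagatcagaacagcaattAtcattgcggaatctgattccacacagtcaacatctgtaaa
ase: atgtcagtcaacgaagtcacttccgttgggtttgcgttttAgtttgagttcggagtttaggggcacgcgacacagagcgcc
wor: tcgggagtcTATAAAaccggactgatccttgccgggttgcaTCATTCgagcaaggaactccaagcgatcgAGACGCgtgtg
esg: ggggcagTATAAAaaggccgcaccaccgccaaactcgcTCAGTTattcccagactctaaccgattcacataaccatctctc
pros: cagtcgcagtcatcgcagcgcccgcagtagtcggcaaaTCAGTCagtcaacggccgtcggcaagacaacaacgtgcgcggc

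The 3 non-bHLH genes had an initiator within 5 bp of the position called most often, and the bHLH genes did not. An initiator was read as TCA followed by G or T, then T, then C or T, with its A within 5 bp of the TSS position, and wor, esg and pros had one, against 14.5% of the 18098 promoter TSSs in the table. A TATA box (TATA, then A or T, then A, starting 33 to 28 bp upstream) was found in ac, wor and esg, at -31, -31 and -33, against 4.86% of promoter TSSs. The DPE consensus (any base but C, C or G, A or T, C or T, any base but T, C or T, from +28 to +33, counted with the A of the initiator as +1 where there is one and otherwise with the TSS position as +1) was matched by wor and by dpn, against 10.7% of promoter TSSs. Only wor combined it with an initiator, as 3.31% of promoter TSSs did. These matches describe letters and were not tested as sites, and positions within sc changed over time as given further on. The promoter TSSs behind the percentages were not limited to main TSSs, whereas the genes here are given by theirs. They included weak and antisense TSSs, and 11 TSSs of these genes other than the main ones. Shares among main TSSs of like strength were not counted, so whether the motifs are more frequent in these genes was not tested.

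The sc promoter held 4 copies of CAGGTA, the core of the sites known to be bound by Zelda, an activator of the first zygotic genes. It is shown from 250 bases upstream of the TSS position to 49 bases downstream, chrX:395809-396108 on the plus strand, with the copies in capitals on either strand (TACCTG is the motif on the minus strand).
sc promoter: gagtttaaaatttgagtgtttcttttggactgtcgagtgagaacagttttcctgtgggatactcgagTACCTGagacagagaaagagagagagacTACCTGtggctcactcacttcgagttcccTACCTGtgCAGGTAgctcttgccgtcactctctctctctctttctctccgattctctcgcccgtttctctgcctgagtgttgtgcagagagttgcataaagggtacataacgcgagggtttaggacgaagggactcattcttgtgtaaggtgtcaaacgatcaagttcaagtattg

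The 4 copies lay from -183 to -178, -155 to -150 and -126 to -121 on the minus strand and from -118 to -113 on the plus strand. In windows of the same length, dpn had 2 copies and ac, l(1)sc and esg had 1 each, while ase, wor and pros had none. Of the 18098 promoter TSSs 9.08% had at least 1 copy, 1.39% at least 2, and 6 of them, or 0.0332%, at least 4. The letters of CAGGTA cannot overlap a copy of the E-box CANNTG, which bHLH factors bind and which was found from 0 times in sc and pros to 4 times in ase. With 6 of 8 promoters holding an E-box against 78% of all promoter TSSs, the share was near that background. As above, the promoter TSSs were not limited to main TSSs, so neither CAGGTA nor the E-box was set against a matched background.

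Libraries were larger late in the course, with 6705989 to 10553406 tags at 6-8 h, against 2632187 to 2908161 at 0-2 h. The main TSS of tin was lower in tinmDPE than in tinWT in 4 of 4 windows, by -1.70 at most (2-4 h, adjusted p = 0.0126 by limma) and by -0.42 at least (6-8 h), and both tinmDPE strains were below tinWT each time. The authors called fewer TSSs in some libraries. Among 5784 gene main TSSs with a mean value above 5, a minimum chosen after values were seen, the tinWT 4-6 h library had 73.5% called and the 0-2 h libraries 77.3 to 81.5%, against 97.9% in F3 at 2-4 h. The members that lacked a call were ac, l(1)sc and ase in tinWT at 0-2 h, esg in F3 at 0-2 h, l(1)sc, esg and pros in M6 at 0-2 h, sc in M6 at 2-4 h, and ac, l(1)sc and pros in tinWT at 4-6 h. Each TSS still has a value in every library, since the authors counted tags over the merged list.

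Values are the authors' regularized log (rlog) values on a log2 scale, in which a difference of 1 is 2-fold before the shrinkage of low values. Over the 12 libraries the mean value of the main TSS ranged between 5.69 for ase and 11.10 for pros, in regions of 151 to 161 bp. All 8 main TSSs had signal already at 0-2 h. Across the course 5 of the 8 changed with the window (sc, ase, dpn, wor and pros; limma F test with strain as block, Benjamini-Hochberg over all TSSs, threshold 0.05), against 19.9% of all TSSs and 49.3% of the gene main TSSs with a mean above 5. At 6-8 h against 0-2 h 6 of the 8 were higher and 0 lower, against 9.88% of all TSSs higher and 7.5% lower, and 22.3% higher among the TSSs with a mean above 5. The median change of the 8 was +1.45, beside -0.08 for all TSSs and -0.19 for those with a mean above 5.

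**Figure D1:**
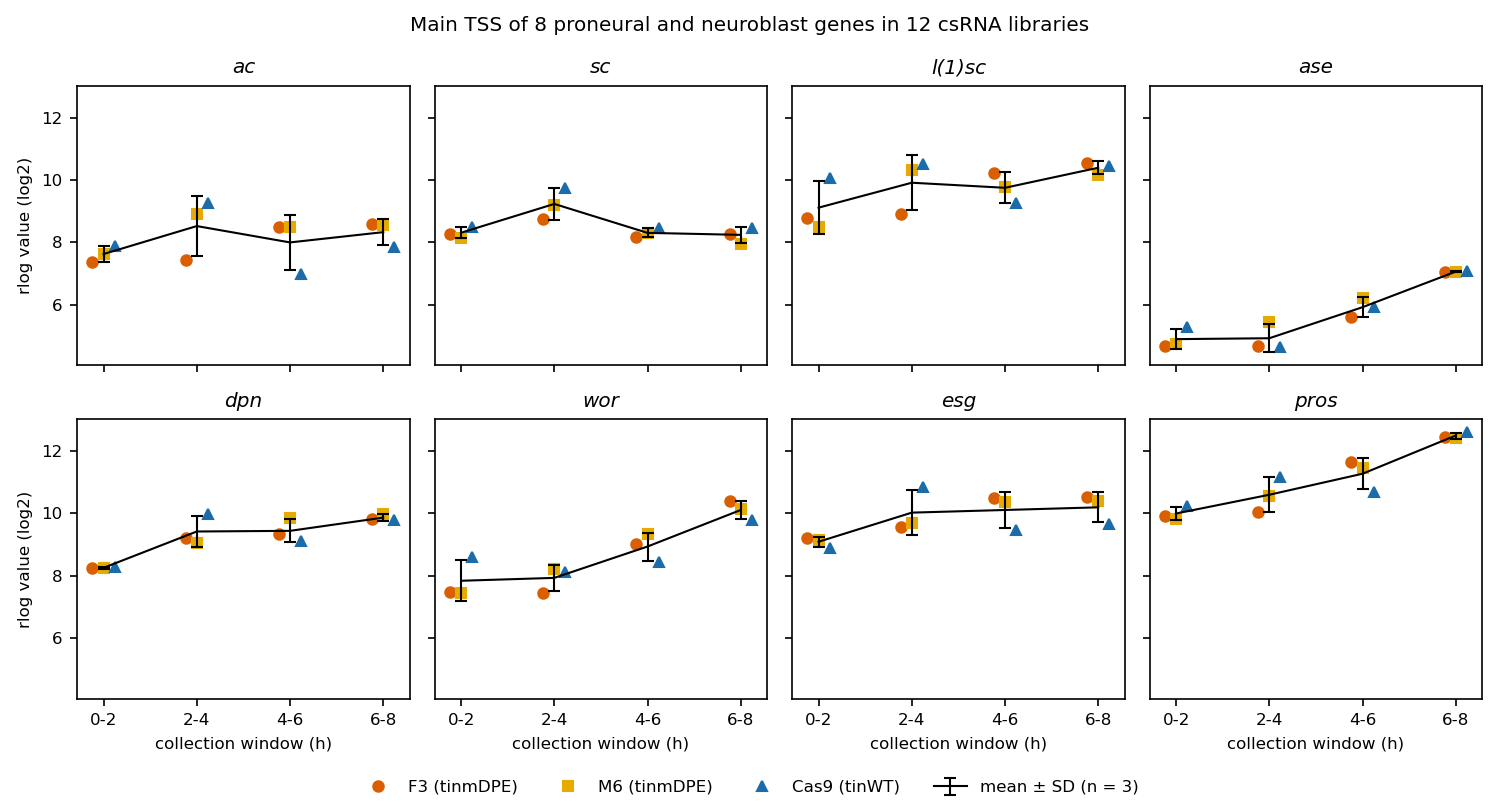
Value of the main TSS (rlog, log2 scale) of each gene by collection window, with orange circles for F3, yellow squares for M6, blue triangles for tinWT, and the black line for the mean with SD over the 3 libraries. ase, wor and pros climb to their highest values at 6-8 h, sc is highest at 2-4 h, and ac, l(1)sc, dpn, esg and pros have tinWT above both tinmDPE strains at 2-4 h and below both at 4-6 h.

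The proneural genes ac, sc and l(1)sc sit together in the achaete-scute complex near the tip of the X chromosome, with ase further along. Their TSS positions, all on the plus strand, were 370028 for ac, 396059 for sc, 409723 for l(1)sc and 460763 for ase, so that ac and sc were 26031 bp apart, sc and l(1)sc 13664 bp, and l(1)sc and ase 51040 bp. All 4 lie within the annotated span of CG32816, which runs on the minus strand. The tags were counted by strand, so its sense transcripts do not enter these values.

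sc, the partner of ac in the proneural clusters, peaked at 2-4 h. It had 8.28 in F3, 8.14 in M6 and 8.50 in tinWT at 0-2 h, and 8.75 in F3, 9.19 in M6 and 9.76 in tinWT at 2-4 h. The 4-6 h libraries gave 8.16 in F3, 8.30 in M6 and 8.45 in tinWT, and at 6-8 h 8.28 in F3, 7.96 in M6 and 8.47 in tinWT. All 3 libraries of 2-4 h lay above all those of 0-2, 4-6 and 6-8 h, with tinWT the highest in every window. The rise at 2-4 h against 0-2 h was 0.93 ± 0.26 (SE, limma, adjusted p = 0.0416), and 6-8 h was lower than 2-4 h by -0.99 ± 0.26 (limma, adjusted p = 0.0197). The difference of 4-6 h from 2-4 h was -0.93 ± 0.26 (limma, adjusted p = 0.0772), past no threshold although each strain was lower by 0.59 to 1.31. Among the 8 genes sc was the one whose 6-8 h value was lower than its 2-4 h value in every strain, and 6-8 h differed from 0-2 h by -0.07 ± 0.26 (limma, adjusted p = 0.878). The 2-4 h call of sc passed under 5 of 21 alternatives, with adjusted p-values between 0.0156 and 0.263, and leaving out any 1 library other than tinWT at 4-6 h ended it.

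The position called for sc moved by 10 bp late in the course. It was 396059 in 8 libraries, all of them from 0-2, 2-4 or 4-6 h, and 396069 in the 3 libraries of 6-8 h, in F3, M6 and tinWT alike. The library of M6 at 2-4 h had no call. Position 396069 is the A of TCATTC, the initiator match marked in the sc core promoter printed above, whereas 396059 is a G with no initiator within 5 bp. Both positions fall inside the region that was counted, so the values of sc join them. For ac, l(1)sc, ase, dpn and pros the called position was the same in every library with a call. In wor it was the same in 9 of 12 libraries and within 3 bp otherwise. In esg it was the same in 8 of 10 and within 1 bp otherwise. The shift of sc was noticed in the calls and was not tested, and how the caller chose between nearby starts was not given in the sources used here.

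**Figure D2:**
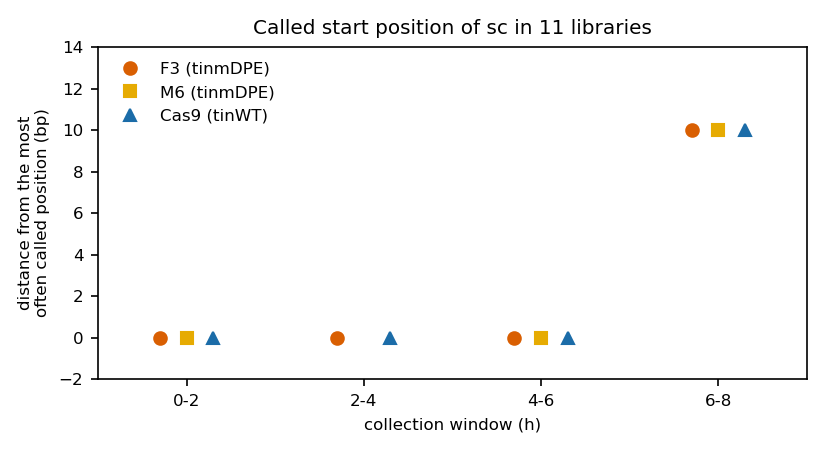
Position called for the main TSS of sc in each library with a call, as distance in bp from the position called most often, by collection window, with circles for F3, squares for M6 and triangles for tinWT. The 8 calls of the first 3 windows sit at 0 and the 3 calls of 6-8 h at 10 bp downstream.

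ac, expressed in the same clusters as sc, did not separate by window. It had 7.37 in F3, 7.63 in M6 and 7.87 in tinWT at 0-2 h, and 7.42 in F3, 8.89 in M6 and 9.25 in tinWT at 2-4 h. At 4-6 h it had 8.50 in F3, 8.50 in M6 and 6.99 in tinWT, and at 6-8 h 8.59 in F3, 8.55 in M6 and 7.84 in tinWT. The tinWT value was the highest of the 3 at 2-4 h and the lowest at 4-6 h, and every pair of windows overlapped. ac did not pass the window test (limma F test, adjusted p = 0.413), and 2-4 h differed from 0-2 h by 0.90 ± 0.44 (limma, adjusted p = 0.228).

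l(1)sc, the proneural gene most widely used in the embryonic ventral nerve cord, was higher at 6-8 h than at 0-2 h. It had 8.77 in F3, 8.49 in M6 and 10.08 in tinWT at 0-2 h, and 8.91 in F3, 10.32 in M6 and 10.51 in tinWT at 2-4 h. The 4-6 h libraries gave 10.24 in F3, 9.77 in M6 and 9.25 in tinWT, and at 6-8 h 10.56 in F3, 10.17 in M6 and 10.46 in tinWT. F3 and M6 were low at 0-2 h while tinWT was not, and the libraries of 6-8 h lay just above all those of 0-2 h. The difference of 6-8 h from 0-2 h was 1.28 ± 0.41 (SE, limma, adjusted p = 0.0416), and it held under 4 of 21 alternatives, with adjusted p-values between 0.0105 and 0.354. Of the fits without 1 library it was kept without tinWT at 0-2 h and without tinWT at 4-6 h, and lost without any other. The window F test gave an adjusted p of 0.15 (limma).

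ase, the member of the complex that is switched on in neural precursors rather than in proneural clusters, stayed low through 2-4 h and was higher afterwards. It had 4.67 in F3, 4.73 in M6 and 5.26 in tinWT at 0-2 h, and 4.67 in F3, 5.44 in M6 and 4.64 in tinWT at 2-4 h. At 4-6 h it had 5.59 in F3, 6.22 in M6 and 5.93 in tinWT, and at 6-8 h 7.05 in F3, 7.04 in M6 and 7.08 in tinWT. The 3 strains agreed closely at 6-8 h, where the SD was 0.020, and both later windows lay above both earlier ones without overlap. ase was higher at 6-8 h than at 0-2 h by 2.17 ± 0.31 (SE, limma, adjusted p = 0.000176) and at 4-6 h than at 0-2 h by 1.03 ± 0.31 (limma, adjusted p = 0.038), while 2-4 h differed from 0-2 h by 0.03 ± 0.31 (limma, adjusted p = 0.966).

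dpn encodes a Hairy-related bHLH repressor that maintains neuroblasts. Its main TSS lay on the minus strand of chromosome arm 2R, from 8232252 to 8232402, and was called in all 12 libraries. It had 8.24 in F3, 8.24 in M6 and 8.29 in tinWT at 0-2 h, and 9.22 in F3, 9.06 in M6 and 9.98 in tinWT at 2-4 h. In the 4-6 h window dpn had 9.34 in F3, 9.85 in M6 and 9.13 in tinWT, and at 6-8 h 9.83 in F3, 9.99 in M6 and 9.78 in tinWT. The 3 libraries of 0-2 h were within 0.1 of each other and all 9 later libraries lay above them. dpn rose with sc, by 1.17 ± 0.28 at 2-4 h against 0-2 h (SE, limma, adjusted p = 0.0229), and remained higher at 4-6 h by 1.19 ± 0.28 (limma, adjusted p = 0.00949) and at 6-8 h by 1.61 ± 0.28 (limma, adjusted p = 0.000763), each against 0-2 h. The 2-4 h call held under 10 of 21 alternatives, with adjusted p-values between 0.0101 and 0.304. Leaving out 1 library ended it for each of the 3 libraries of 0-2 h, tinWT and F3 at 2-4 h, F3 at 4-6 h, and F3 and M6 at 6-8 h. Which cells of the whole embryos gave the rises of sc and dpn at 2-4 h was not tested.

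wor and esg encode zinc-finger repressors of the Snail family, neighbours on arm 2L whose TSS positions were 91706 bp apart and which are known to act together with sna in neuroblasts. Their main TSSs ran from 15425497 to 15425652 on the minus strand for wor and from 15333793 to 15333944 on the plus strand for esg. wor had 7.47 in F3, 7.45 in M6 and 8.59 in tinWT at 0-2 h, and 7.44 in F3, 8.22 in M6 and 8.13 in tinWT at 2-4 h. In the 4-6 h window wor had 9.01 in F3, 9.35 in M6 and 8.46 in tinWT, and at 6-8 h 10.39 in F3, 10.16 in M6 and 9.79 in tinWT. The course of wor was like that of ase, with no overlap between 6-8 h and any earlier window. It was higher at 6-8 h than at 0-2 h by 2.27 ± 0.35 (SE, limma, adjusted p = 0.000287) and at 4-6 h by 1.10 ± 0.35 (limma, adjusted p = 0.0458), and 2-4 h differed from 0-2 h by 0.09 ± 0.35 (limma, adjusted p = 0.88). Unlike in ase, the rise at 4-6 h was seen in F3 (1.54) and M6 (1.90) but not in tinWT (-0.14), and 4-6 h overlapped 0-2 h.

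esg, which is also expressed in tracheal and imaginal precursors, was higher at 6-8 h than at 0-2 h. It had 9.23 in F3, 9.14 in M6 and 8.91 in tinWT at 0-2 h, and 9.55 in F3, 9.69 in M6 and 10.85 in tinWT at 2-4 h. Later, at 4-6 h, esg had 10.50 in F3, 10.38 in M6 and 9.46 in tinWT, and at 6-8 h 10.54 in F3, 10.40 in M6 and 9.65 in tinWT. In both tinmDPE strains the value increased from window to window, while in tinWT 2-4 h was the highest. Over the strains 6-8 h was above 0-2 h by 1.11 ± 0.36 (SE, limma, adjusted p = 0.0432) without overlap, a call that held under 6 of 21 alternatives with adjusted p-values between 0.00297 and 0.384. Of the fits without 1 library it was kept without tinWT at 2-4 h and without tinWT at 4-6 h, and lost without any other.

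pros, the gene for the homeodomain protein that ends self-renewal, rose over the course. Its main TSS, from 11372715 to 11372865 on the plus strand of arm 3R, is the start of its shorter annotated transcripts and lies in exon 4 of the longer ones. It had 9.91 in F3, 9.84 in M6 and 10.25 in tinWT at 0-2 h, and 10.06 in F3, 10.57 in M6 and 11.18 in tinWT at 2-4 h. Later, at 4-6 h, pros had 11.66 in F3, 11.47 in M6 and 10.71 in tinWT, and at 6-8 h 12.47 in F3, 12.43 in M6 and 12.62 in tinWT. All 3 libraries of 6-8 h were higher than every other library. The difference from 0-2 h was 2.51 ± 0.29 at 6-8 h (SE, limma, adjusted p = 2.93e-05), 1.28 ± 0.29 at 4-6 h (limma, adjusted p = 0.00809) and 0.60 ± 0.29 at 2-4 h (limma, adjusted p = 0.222).

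Set side by side, few of the 8 genes differed between neighbouring windows beyond their spread. At 2-4 h against 0-2 h 2 of the 8 were higher, sc and dpn, and 0 lower (3 at an unadjusted p under 0.05), against 4.22% of all TSSs higher and 2.44% lower. Among the gene main TSSs with a mean above 5, 7.52% were higher. At 4-6 h against 0-2 h 4 were higher (ase, dpn, wor and pros), against 7.56% of all TSSs and 17.4% of those gene main TSSs. The 4 calls held under 7, 17, 7 and 16 of 21 alternatives. Of the fits without 1 library, the call of ase was kept without tinWT at 0-2 h, tinWT at 2-4 h or M6 at 2-4 h (adjusted p-values in limma from 0.02 to 0.259 over its alternatives), and that of wor without tinWT at 0-2 h or tinWT at 4-6 h (0.00644 to 0.492 in limma). The call of dpn was lost without F3 or M6 at 4-6 h (0.00328 to 0.23 in limma), and that of pros without these or F3 at 0-2 h (0.00199 to 0.257 in limma). At 6-8 h against 2-4 h ase, wor and pros were higher and sc lower, 4 of 8. In either direction 10.6% of all TSSs were called, and 21.4% of the gene main TSSs with a mean above 5. The fall of sc was lost without M6 at 2-4 h or any 1 library of 6-8 h (adjusted p-values in limma from 0.00832 to 0.193 over its alternatives), while no single library ended the rises of ase, wor and pros. The steps between neighbouring later windows gave 0 calls in limma: 0 of 8 at 4-6 h against 2-4 h (4 at an unadjusted p under 0.05, 2.11% of all TSSs called) and 0 of 8 at 6-8 h against 4-6 h (3 at an unadjusted p under 0.05, 0.513% of all TSSs called). ase, wor and pros were nevertheless higher at 6-8 h than at 4-6 h in all 3 strains and without overlap, by 1.14 ± 0.31, 1.17 ± 0.35 and 1.23 ± 0.29 (SE), with adjusted p-values of 0.118, 0.155 and 0.0733 in limma. The calls of ase, dpn, wor and pros at 6-8 h against 0-2 h held under 20 of 21 alternatives each and were lost without the strain F3.

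**Figure D3:**
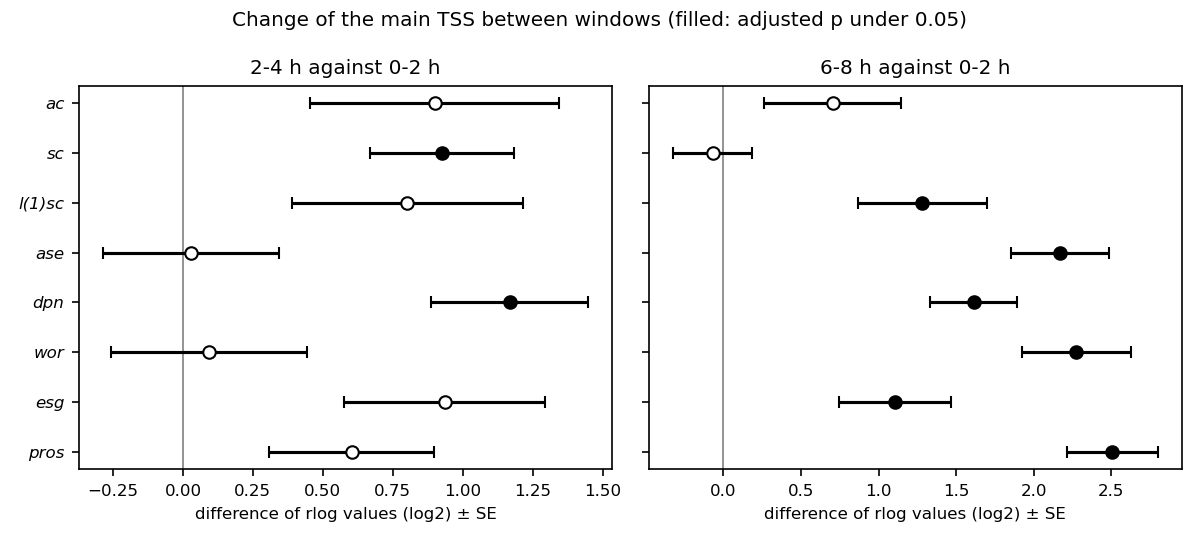
Difference of the main TSS of each gene at 2-4 h (left) and at 6-8 h (right) from 0-2 h, in rlog units (log2) with SE, from the limma fit over 12 libraries; filled points passed an adjusted p of 0.05. sc and dpn are filled at 2-4 h, and 6 genes, all but ac and sc, at 6-8 h.

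Other cell types and the stage of the embryos moved over the same windows. As background, 9.88% of all TSSs and 22.3% of the gene main TSSs with a mean above 5 were higher at 6-8 h than at 0-2 h. Of 9 neuron genes 7 were higher at 6-8 h than at 0-2 h, and the log2 of their summed level lay between 12.64 and 12.81 at 6-8 h, against 11.03 to 11.44 at 0-2 h. Of 7 glia genes 5 were higher, with sums between 14.37 and 14.61 at 6-8 h, against 12.49 to 12.67 at 0-2 h. Such sums follow the strongest genes of a list most. At 6-8 h these were zfh1 among the neuron genes, with a mean of 11.52, and pnt among the glia genes, with 13.79. zfh1 and pnt already had means of 10.30 and 11.76 at 0-2 h. How far the sums reflect neurons and glia was not tested. The maternal genes nos, pgc, osk and bcd were all 4 lower at 6-8 h, with sums between 5.21 and 6.75 at 6-8 h, against 10.09 to 10.75 at 0-2 h. The glial gene repo and the neuronal gene elav already averaged 9.68 and 7.30 at 0-2 h, while Lim3, a motor neuron gene, and gcm2, a glial gene, stayed near the bottom of the scale with means of -0.20 and 0.43. The part of cell type, stage and depth in the changes of the 8 genes was not tested.

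Over all windows none of the 8 genes differed between genotypes. The limma fit with window as covariate called 0 of 8 (1 at an unadjusted p under 0.05), against 0.323% of all TSSs, and the lowest adjusted p was 0.47, for sc, with a difference of -0.41 ± 0.18 (SE). sc was lower in both tinmDPE strains in 4 of 4 windows. F3 and M6, which share the genotype label, gave 0 calls of 8 in limma (0 at an unadjusted p under 0.05), against 0.00218% of all TSSs, with a lowest adjusted p of 0.911. Single windows between F3 and M6 still differed by up to 1.47, in ac at 2-4 h.

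Within windows the sign of the genotype difference turned over for most of the genes. At 0-2 h both tinmDPE libraries were below tinWT for 7 of 8 genes, all but esg, with a median difference of -0.37, and at 2-4 h for 6 of 8, all but ase and wor, with a median of -0.85. At 4-6 h both were above tinWT for 6 of 8, all but sc and ase, with a median of +0.74, and at 6-8 h for 4 of 8, with a median of +0.05. Over all TSSs both tinmDPE libraries were lower at 52.6% in 0-2 h and 54.1% in 2-4 h and both higher at 25.1% in 4-6 h, and all 4 medians lay between -0.07 and -0.01. Among the 5784 TSSs with a mean above 5 both were lower at 46.5% and 39.6% in the first 2 windows and both higher at 40.9% in 4-6 h. The 8 genes share the same 3 libraries in a window, so these counts are not independent observations.

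In each window 1 tinWT library without a replicate was set against 2 tinmDPE libraries, and 1 difference passed. esg was lower in tinmDPE at 2-4 h by -1.23 ± 0.16 (SE, limma, adjusted p = 0.00731), against 5.7% of all TSSs lower in that window (2.24% after median centring), and 4 of 8 genes had an unadjusted p under 0.05. The spread in these fits comes from the differences between F3 and M6 alone, at 4 residual degrees of freedom. limma draws the spread of each TSS toward a trend fitted over all TSSs, and the single tinWT library is assumed to vary alike. The call held under 15 of 16 alternatives and was lost when TSSs up to the 25th percentile by mean were left out (limma, adjusted p = 0.126, against 0.00728 to 0.126 over the alternatives), where the TSSs called in that window fell to 4, against 2924 in all. Without the tinWT 2-4 h library there is no such difference to fit. At 0-2 h 0 of 8 were called (2 at an unadjusted p under 0.05, 0.301% of all TSSs called), at 4-6 h 0 of 8 (3 at an unadjusted p under 0.05, 0.777% of all TSSs) and at 6-8 h 0 of 8 (1 at an unadjusted p under 0.05, 0.367% of all TSSs), all in limma. Differences as large as that of esg did not pass for ac at 4-6 h, at 1.51 ± 0.55 (limma, adjusted p = 0.402), nor for l(1)sc at 0-2 h, at -1.45 ± 0.57 (limma, adjusted p = 0.49). esg at 4-6 h, higher by 0.99 ± 0.16, had an adjusted p of 0.0819 (limma). The change of the genotype difference over the windows was called for 1 of 8, esg (interaction of genotype and window, limma F test, adjusted p = 0.0157, 4 genes at an unadjusted p under 0.05), against 4.95% of all TSSs. That background of 2268 TSSs shrank to 2 after median centring, 5 above the 25th percentile, 2 without the variance trend and 0 of the gene sums, and esg was not called under any of these 4 settings.

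**Figure D4:**
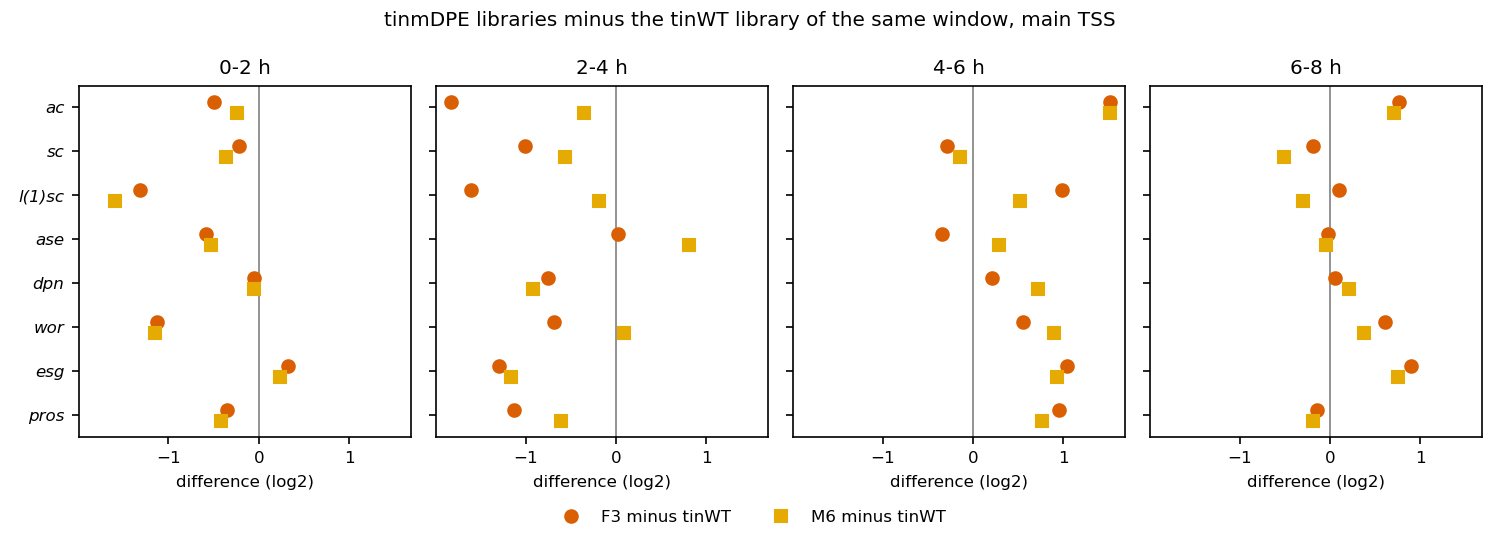
Difference of F3 (circles) and M6 (squares) from the tinWT library of the same window, in rlog units (log2), for the main TSS of each gene. Most points are left of 0 at 0-2 h and 2-4 h and right of 0 at 4-6 h, and the esg points change sides between 2-4 h and both neighbouring windows.

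Stage genes differed between the genotypes in the same windows. At 2-4 h the log2 of the summed level of the 4 maternal genes was 8.67 in F3 and 9.08 in M6, against 7.55 in tinWT. At 4-6 h the 4 cellularization genes nullo, slam, bnk and Sry-alpha summed to 7.22 in F3 and 6.67 in M6, against 5.73 in tinWT. The other sum of each window went another way: the cellularization genes at 2-4 h had 10.29 in F3 and 10.95 in M6, against 10.97 in tinWT, and the maternal genes at 4-6 h had 6.12 in F3 and 6.68 in M6, against 6.42 in tinWT. Both tinmDPE libraries were thus above tinWT for maternal genes at 2-4 h and for cellularization genes at 4-6 h, below it for cellularization genes at 2-4 h, and on either side for maternal genes at 4-6 h. Among the 113 genes of all lists 6 were called between the genotypes at 2-4 h (39 at an unadjusted p under 0.05), and 0 of them after median centring. The 7 glia genes had a median difference of -0.90 there, with 1 called lower. Within these windows 0 of the 8 stage genes passed in limma, with 2 at an unadjusted p under 0.05 at 2-4 h (nos and osk) and 2 at 4-6 h (osk and Sry-alpha), and their part in the genotype differences was not tested.

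The other 44 TSSs assigned to the 8 genes were weak beside the main ones and mostly antisense. They comprised 35 on the opposite strand and 9 on the strand of the gene. The antisense ones at ac, sc, l(1)sc and ase lay within the annotated span of CG32816, whose strand they share. Of the 44, 20 were called in 1 library and 8 in 6 or more. Their means ran from -1.59 to 6.27 with a median of 0.65, and 35 of the 44 were above the 25th percentile of all TSSs. The main TSS exceeded the next by 9.01 for l(1)sc, the widest gap, and by 1.10 for ase, the narrowest. For 7 of the 8 genes, all but ase, an antisense TSS lay within 600 bp upstream of the start. Those of sc, l(1)sc, wor and esg were called in at most 2 libraries, with means from -0.66 to 0.78. The share of all genes with such a TSS was not counted. 10 of the 44 changed with the window (limma F test), near the 19.9% of all TSSs, and 0 differed between genotypes over all windows (limma; 5 at an unadjusted p under 0.05, lowest adjusted p = 0.202). At 6-8 h against 0-2 h 8 of the 44 were higher and 0 lower, beside 9.88% higher and 7.5% lower over all TSSs.

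The strongest of these lay at pros. An antisense TSS at -513 bp from the annotated start, called in 10 libraries, had means of 5.22, 6.63, 6.73 and 6.48 in the 4 successive windows, and a sense TSS at -584 bp, called in 4 libraries, had 4.68, 6.05, 5.92 and 5.88. Both were higher at 2-4 h than at 0-2 h, by 1.42 ± 0.36 (SE, limma, adjusted p = 0.0278) and 1.37 ± 0.31 (limma, adjusted p = 0.0162), and did not climb further, whereas the main TSS kept rising to 6-8 h. At ac an antisense TSS at -257 bp had window means of 1.81, 3.26, 3.22 and 3.26 and was called in 8 libraries but in none of 0-2 h. It was higher at 2-4 h than at 0-2 h by 1.44 ± 0.38 (SE, limma, adjusted p = 0.0337), where ac itself did not pass.

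ase had upstream sense TSSs with courses of their own. A TSS at -5918 bp from the annotated start, in an intron of CG32816, was called in all 12 libraries and had window means of 4.89, 4.77, 4.50 and 4.22, which did not differ (limma F test, adjusted p = 0.441). At 0-2 h it stood level with the main TSS of ase, at 4.89 on average. Another, at -3584 bp, was called in 9 libraries, none of them from 0-2 h, and was higher at 6-8 h than at 0-2 h by 1.76 ± 0.36 (SE, limma, adjusted p = 0.00258). Whether transcripts from these starts reach ase was not tested. When all TSSs of a gene were summed, the rise of ase at 6-8 h became 1.32 (limma, adjusted p = 0.00154, within 0.000202 to 0.0787 over its alternatives).

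**Figure D5:**
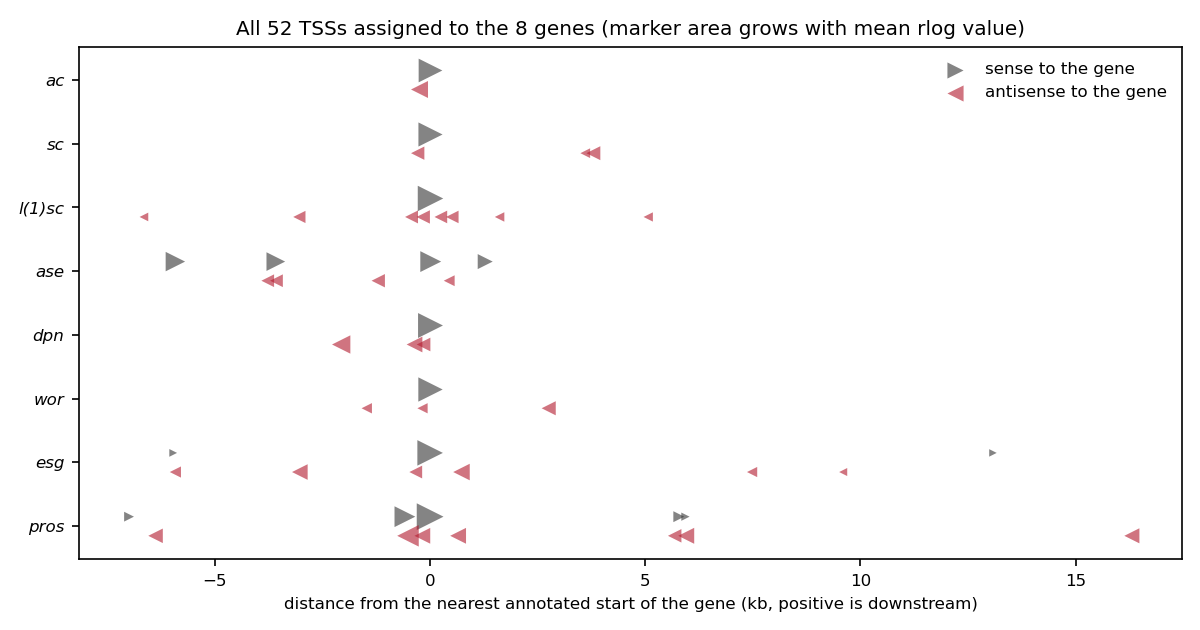
Distance of all 52 TSSs from the nearest annotated start of their gene in kb, with right-pointing grey marks for TSSs on the strand of the gene and left-pointing red marks for antisense ones; the area grows with the mean rlog value over 12 libraries. The main TSSs form the column of large grey marks at 0, and 35 of the other 44 marks are antisense.

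Of 20 partners and regulators of the proneural genes 6 were higher and 1 lower at 2-4 h than at 0-2 h, and 13 were higher and 0 lower at 6-8 h, with a median of +1.49 beside -0.08 for all TSSs. For this list and those below, 4.22% of all TSSs were higher at 2-4 h and 9.88% at 6-8 h. Among gene main TSSs with a mean above 5 these shares were 7.52% and 22.3%. vnd, which patterns the ventral neuroectoderm, rose by 1.32 ± 0.29 (limma, adjusted p = 0.016) and the proneural gene amos by 1.18 ± 0.29 (limma, adjusted p = 0.0269) at 2-4 h. The one that fell was daughterless (da), the shared dimer partner, by -0.97 ± 0.25 (limma, adjusted p = 0.0317). At 6-8 h the neural bHLH gene tap rose by 2.23 ± 0.33 (limma, adjusted p = 0.000201) and senseless (sens), which strengthens proneural activity in sensory precursors, by 2.08 ± 0.29 (limma, adjusted p = 0.000113).

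Listed genes of the Notch pathway and its targets, which include antagonists of Notch such as numb and Ocho, were mostly higher at 6-8 h. Of 28 listed 26 had a TSS, and 21 were higher and 1 lower at 6-8 h than at 0-2 h, with a median of +1.76, while at 2-4 h 1 was higher, the co-repressor gene groucho (gro), by 0.95 ± 0.27 (limma, adjusted p = 0.0477). The largest rises were in sanpodo (spdo), needed for Notch signalling in asymmetric divisions, by 2.78 ± 0.30 (limma, adjusted p = 1.44e-05), and in the repressor gene E(spl)mgamma-HLH, by 2.77 ± 0.42 (limma, adjusted p = 0.000244). Su(H), the DNA-binding factor of the pathway, fell by -0.91 ± 0.28 (limma, adjusted p = 0.0361).

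Of 19 genes of asymmetric division, 7 were higher and 1 lower at 6-8 h, with a median of +0.34, and 2 were higher and 1 lower at 2-4 h. Among gene main TSSs with a mean above 5, 22.3% were higher at 6-8 h and 7.52% at 2-4 h. numb, the Notch inhibitor inherited by 1 daughter, rose by 1.96 ± 0.33 (limma, adjusted p = 0.000613) and baz, which marks the apical pole, by 1.59 ± 0.22 (limma, adjusted p = 0.000127) at 6-8 h, when l(2)gl fell by -1.31 ± 0.43 (limma, adjusted p = 0.0445). At 2-4 h stau and mira, whose products carry pros RNA and Prospero to the daughter, rose by 1.41 ± 0.31 (limma, adjusted p = 0.0142) and 1.02 ± 0.26 (limma, adjusted p = 0.0279), and the kinase gene aurA fell by -1.09 ± 0.30 (limma, adjusted p = 0.0387).

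Factors that give neuroblasts their temporal and positional identity were mostly higher at 6-8 h than at 0-2 h. Of the 7 genes of the temporal series 4 were higher at 2-4 h (Kr, nub, cas and grh) and 6 at 6-8 h. The first of the series, hunchback (hb), was lower at 2-4 h by -1.04 ± 0.27 (limma, adjusted p = 0.0306), and svp had the largest rise at 6-8 h, 2.67 ± 0.36 (limma, adjusted p = 8.67e-05). All 12 of the listed sna relatives and other neuroblast factors were higher at 6-8 h, with a median of +1.63, and 6 at 2-4 h, led by erm, by 1.55 ± 0.30 (limma, adjusted p = 0.00909), and gsb, by 1.49 ± 0.24 (limma, adjusted p = 0.00404). gsb-n rose by 2.64 ± 0.36 (limma, adjusted p = 0.000108) and klu by 2.32 ± 0.30 (limma, adjusted p = 7.65e-05) at 6-8 h. Over all lists 32 of 113 genes were called at 2-4 h against 0-2 h, and 20 after median centring. numb, scrt, nerfin-1 and loco each stand in more than 1 list. In the genotype fit over all windows 0 of the 113 listed genes, markers included, passed (limma; 15 at an unadjusted p under 0.05), and the lists were compared with all TSSs by their counts alone.

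The profiles over the 12 libraries grouped the 8 genes by their late rise. Pearson's r was 0.95 between ase and wor, 0.94 between wor and pros, and 0.89 between ase and pros, and lowest, -0.43, between sc and ase. Among 12111 other genes the main TSS most like ase was org-1, a T-box gene (r = 0.99), with spdo among the next (r = 0.97), and those most like pros were jing and cut (ct), both at r = 0.99. dpn was closest to knirps-like (knrl) at r = 0.98, wor to mummy (mmy) at r = 0.97, and esg to klar, prd and repo at r = 0.97 to 0.96. l(1)sc was closest to Ocho, a Bearded-family antagonist of Notch signalling (r = 0.97), with E(spl)m5-HLH also among its 3 nearest (r = 0.96). ac was closest to Hsp22 (r = 0.91) and sc to CG12817 (r = 0.95), whose TSS was weak, with a mean of -0.37. All values in a library share its depth and stage, 12 libraries define each r, and the coefficients are a description.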

How the data were processed

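csRNA-seq values of 12 libraries were analysed (3 strains in 4 windows), and the input libraries were not used here. Per the file headers, the authors used HOMER (dm6) to merge per-library TSS lists strand by strand and deposited, for each TSS, the position called in each library, a score and a count of the merged entries, which served only to find calls. Strand-specific tags, each taken as a fragment of length 1, were then turned by the authors into the deposited rlog values, on a log2 scale. Per the submitters' processing notes, STAR 2.7.10a, HOMER and edgeR were used, and their roles are not given in the sources used here. Because rlog shrinks low values, differences at weak starts come out too small, and the number of libraries (2632187 to 10553406 tags each) limits the precision.

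limma 3.58.1 (R 4.3.3) fitted its models over the whole table of 45839 TSSs (eBayes with a trend) and Benjamini-Hochberg adjustment at 0.05. Window effects had strain as replicate block, because each strain is a line that gave a library in every window. Within a strain the deviations from window means correlated by 0.0643 (F3), 0.0669 (M6) and 0.154 (Cas9) on average. The mean of -0.0475 between strains is tied to these values, because each window was centred on its own 3 libraries. It is no separate evidence for the block. The genotype effect had window as covariate, within-window differences and the interaction came from group means, and F3 against M6 from window and strain. On simulated data with 200 TSSs shifted by 2, 180 were recovered with 17 false calls for 2-4 h against 0-2 h, and 198 with 12 false calls for the genotype. The simulated noise was independent between libraries and held no strain effect. Recovery of smaller differences, such as 0.93 for sc and 1.17 for dpn at 2-4 h, was not simulated. Sequences came from RefSeq Release 6, whose 7 chromosomes matched the coordinates. As position of a TSS, the centre that most libraries called was taken. Python 3.11.15 and pandas 2.3.3 did the rest.

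The members, lists and tests were chosen with earlier results of these data known. Genes named are the 8 members, tin, the 2 largest called rises and falls per list and contrast, the 3 most correlated genes, and a few stage, cell type and other listed genes named after their values were seen. Alternatives were quantile normalization, median centring, TSSs above the 25th percentile, no variance trend, a sum over TSSs, no replicate block, and leaving out libraries or strains.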

Additional observations from a re-analysis of the deposited data

Results flagged for a closer look

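The tinmDPE to tinWT difference of esg depended on the window (interaction in limma, F test, adjusted p = 0.0157), and it is given here because the difference itself was tested between windows. In tinmDPE minus tinWT it was 0.28 ± 0.16 (SE) in the first window, -1.23 ± 0.16 at 2-4 h, 0.99 ± 0.16 at 4-6 h and 0.82 ± 0.16 in the last window. F3 and M6 lay on the same side of tinWT in all 4 windows and differed from each other by at most 0.14. The tinWT value had no replicate in any window. The error of the test comes from the F3 to M6 differences alone, those of esg drawn by limma toward a trend over all TSSs. The call was lost after median centring, above the 25th percentile, without the variance trend and for gene sums, and over the 3 other windows, without 2-4 h, the interaction was called for 0 of the 8 genes.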

How the results depend on the processing

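None of the 17 called differences of the 8 genes turned its direction under its alternatives, and counts of 0 at 4-6 h against 2-4 h, 6-8 h against 4-6 h, for the genotype overall and for F3 against M6 remained 0 in every fit without a library or strain. Median centring reduced the genes called at 2-4 h against 0-2 h to 1 of 8, as did the fit with no replicate block, against 2 with the block; for the 8 genes the replicate block moved no other count by more than 1.5 times, while over all TSSs the calls at 6-8 h against 4-6 h were 97 without it and 235 with it. Centring shifted the median change of all TSSs at 2-4 h against 0-2 h by -0.18, with 37.3% of calls higher against 63.4% before it, and at 6-8 h against 2-4 h by +0.15, with 60.1% higher against 45.4%. All listed genes called in the window and genotype contrasts kept their direction under centring and quantile normalization, but centring reduced their calls from 32 to 20 at 2-4 h against 0-2 h and from 6 to 0 for the genotype at 2-4 h. The sum over all TSSs of a gene gave 1 call at 4-6 h against 2-4 h. Above the 25th percentile the within-window genotype count was 0, and the interaction count was 0 under median centring, above the 25th percentile, without the variance trend and with the sum over TSSs. Leaving out a library or strain gave between 0 and 6 genes changed with the window (0 without F3, 1 without M6), 0 to 2 at 2-4 h against 0-2 h, 0 to 6 at 6-8 h against 0-2 h (0 without F3), 1 to 3 within windows and 0 to 3 for the interaction, the highest of both without M6 at 2-4 h. Without a tinWT library that window has no genotype difference, so the within-window count was not taken and the interaction covers the other windows. The within-window and interaction models without a whole tinmDPE strain could not be fitted, as they leave no residual degrees of freedom. The cause of these changes was not tested, other than that fewer libraries enter the fits without 1 of them.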

Other observations

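Markers of tissues outside the nervous system also moved over the course. The share higher at 6-8 h than at 0-2 h was 9.88% of all TSSs and 22.3% of the gene main TSSs with a mean above 5. Of 4 mesoderm genes (twi, Mef2, bap and how) 3 were higher at 6-8 h than at 0-2 h, with a log2 summed level of 9.59 to 10.21 at 6-8 h, against 9.10 to 9.48 at 0-2 h. The main TSS of twi, which was among those called higher, was annotated at a transcript end and not at a promoter. Those of Mef2, bap and how were annotated at promoters. Of 3 endoderm genes (srp, GATAe and fkh) 2 were higher, with sums of 8.45 to 9.31 at 6-8 h, against 7.26 to 8.83 at 0-2 h, which overlap. Of 3 tracheal and salivary gland genes (trh, btl and sage) 2 were higher, with sums of 8.20 to 8.67 at 6-8 h, against 7.36 to 7.43 at 0-2 h. btl, a receptor gene of the trachea where esg is also active, differed by -0.23 ± 0.32 (SE, limma, adjusted p = 0.755).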
